A study of Mus musculus with 12 samples.

Results

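The genes that mark the resident macrophages of the mouse peritoneal cavity were described across 12 arrays, namely Gata6, Rarb, Vsig4, Timd4, Cd5l, Adgre1, Icam2, Selp and Prg4. They were chosen by name, as genes whose RefSeq accession a probe of the array carries, and all 9 genes were found, among 20887 genes named on the array. They were read by 12 probes, with 2 probes each for Adgre1, Rarb and Prg4 and 1 for each other gene. All 9 passed the filter on dim probes, as did 13168 genes in all.

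Resident peritoneal macrophages, also called large peritoneal macrophages, live free in the fluid of the body cavity. Gata6 is the transcription factor that gives them their tissue identity, and it is induced by retinoic acid that cells of the omentum and the body wall supply. Under it stand receptors that catch complement-coated particles (Vsig4) and dying cells (Timd4), adhesion molecules (Icam2, Selp) and secreted proteins (Cd5l, Prg4), while Adgre1 encodes F4/80, the surface antigen by which mouse macrophages are most often sorted. During inflammation these cells are known to stick to surfaces and drop out of lavage fluid.

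Wild-type C57BL/6 peritoneal macrophages were plated, freed of non-adherent cells by washing, kept overnight without serum and then treated for 20 h. Cells of the LPS+IFNγ+emodin group received lipopolysaccharide (LPS, a bacterial cell wall component) at 100 ng/ml, interferon gamma (IFNγ) at 20 ng/ml and the plant anthraquinone emodin at 50 µM, the LPS+IFNγ group received both stimuli without emodin, and the control group received vehicle. Each group had 4 arrays, and by its title the study asked if emodin holds back classical activation. No group received emodin without the stimuli. The mice were 9 weeks old in both treated groups and 8 weeks old in the control group. No label links a sample to a single animal, and the p-values below therefore reflect only how far these 12 arrays spread. Both treated groups were on slide 1 and all control arrays on slide 2, so that slide, age and stimulus cannot be told apart in any comparison with control.

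Several checks of the labels bear on what follows. The design text names blood white cells (PMN) where the tissue label names peritoneal macrophages. All 9 named macrophage markers were well above background on all 12 arrays. Of 11 neutrophil markers, 5 were on all 4 LPS+IFNγ+emodin arrays, 5 on all 4 LPS+IFNγ arrays and 6 on all 4 control arrays, with S100a8, Elane, Mmp8 and Camp on all 12. Ngp was not above background on any array, and Cxcr2 and Retnlg were above it on none of the 8 treated arrays. The summed level of the 11 neutrophil markers, in multiples of the 75th percentile, was 31.6 to 38.9 with emodin, 26.7 to 31.5 in LPS+IFNγ cells and 29.5 to 42.1 in control cells, and the part of neutrophils in the results was not tested. All mice of the treated groups and control replicates 1 and 2 are labelled female, and control replicates 3 and 4 are labelled male. Signals of Xist, Ddx3y and Eif2s3y went against the label on 4 arrays, which are replicate 3 of both treated groups and control replicates 3 and 4. Without replicate 3 of both treated groups the same numbers of the 9 genes were called in all 3 comparisons. Of 13168 tested genes that run called 8674 in LPS+IFNγ against control and 8824 in LPS+IFNγ+emodin against LPS+IFNγ. In LPS+IFNγ+emodin against control it called 10034. The 75th percentile of processed signal was 370 to 466 on LPS+IFNγ+emodin arrays, 637 to 795 on LPS+IFNγ arrays and 633 to 810 on control arrays. Levels below are log2 of the processed signal relative to the 75th percentile of the array, so that a level of 0 lies at that percentile.

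RefSeq promoter windows (GRCm38.p6) were at hand for 5 of the 9 genes, and the 250 bases before the start of 3 are shown. All 5 windows held a searched motif, so a match does not set the 3 shown apart. The Rarb window is chr14:16575477-16575726, minus strand, and its capitals mark a DR5 element, a direct repeat of the half-site that retinoic acid receptors bind with 5 bases between the copies.
Rarb: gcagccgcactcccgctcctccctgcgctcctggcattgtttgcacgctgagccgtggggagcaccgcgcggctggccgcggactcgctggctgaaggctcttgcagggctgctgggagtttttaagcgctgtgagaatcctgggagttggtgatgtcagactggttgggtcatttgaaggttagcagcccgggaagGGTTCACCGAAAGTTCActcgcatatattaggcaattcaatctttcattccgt
The Cd5l window is chr3:87357631-87357880, plus strand, with the GATA motif TGATAA and, on the other strand, the PU.1 core GAGGAA in capitals.
Cd5l: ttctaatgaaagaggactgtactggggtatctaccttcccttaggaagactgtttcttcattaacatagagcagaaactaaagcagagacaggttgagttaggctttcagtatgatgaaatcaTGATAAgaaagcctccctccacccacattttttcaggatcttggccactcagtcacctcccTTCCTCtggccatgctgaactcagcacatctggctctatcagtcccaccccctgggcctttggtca
The Timd4 window is chr11:46810549-46810798, plus strand, with the nuclear receptor half-site AGGTCA in capitals.
Timd4: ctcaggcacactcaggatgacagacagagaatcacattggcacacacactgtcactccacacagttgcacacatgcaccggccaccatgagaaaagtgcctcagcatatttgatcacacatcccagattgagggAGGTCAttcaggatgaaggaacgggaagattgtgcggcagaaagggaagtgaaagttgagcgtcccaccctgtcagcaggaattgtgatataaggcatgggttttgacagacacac
The DR5 element lies 53 to 37 bases before the Rarb start, and 29 of 32851 promoter windows of the same length (0.0883%) held one on either strand. TGATAA was present in 7.94% of windows, AGATAA in 9.99%, AGGTCA in 14.0%, GAGGAA in 23.3% and the NF-kB motif GGNNTTTCC in 4.93%. Of the members whose windows are not printed, Vsig4 had GAGGAA at 155 and 53 bases before its start, and Selp had AGGTCA and GGNNTTTCC on the other strand. A match describes letters and does not show that a factor binds there.

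In the LPS+IFNγ cells all 9 genes differed from control cells. Timd4 and Adgre1 rose and the other 7 fell, the largest fall being that of Vsig4 (7.24-fold lower). At an adjusted p under 0.05, 68.9% of all tested genes were called in this comparison. Upward calls made up 33.8% of all tested genes and downward calls 35.2%, so a high share of called genes is not particular to these 9. The arrays of the LPS+IFNγ and control groups did not overlap for any of the 9 genes, which held for 64.3% of all tested genes. The median log2 change of the 9 genes was -1.32, and that of all tested genes was -0.04.

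With emodin added, 8 of the 9 genes differed from LPS+IFNγ cells, where 71.8% of all tested genes were called. Selp, Cd5l and Prg4 rose (upward calls made up 35.1% of all tested genes) and Timd4, Rarb, Icam2, Gata6 and Adgre1 fell (downward calls made up 36.8%). Vsig4 did not pass the test. The arrays of the LPS+IFNγ+emodin and LPS+IFNγ groups did not overlap for 6 of the 9 genes, as for 67.4% of all tested genes. Both directions therefore occurred among genes that had all fallen in LPS+IFNγ cells: Gata6, Rarb and Icam2 were lower still with emodin, and Cd5l, Selp and Prg4 were higher. The 2 comparisons share the LPS+IFNγ arrays. Against control, the LPS+IFNγ+emodin cells differed in 6 of the 9 genes, where 78.1% of all tested genes were called. Adgre1 was higher (38.9% of all tested genes were called upward) and Vsig4, Rarb, Gata6, Icam2 and Timd4 were lower (39.2% downward). The arrays did not overlap for 6 of the 9 genes, against 72.3% of all tested genes.

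**Figure D1:**
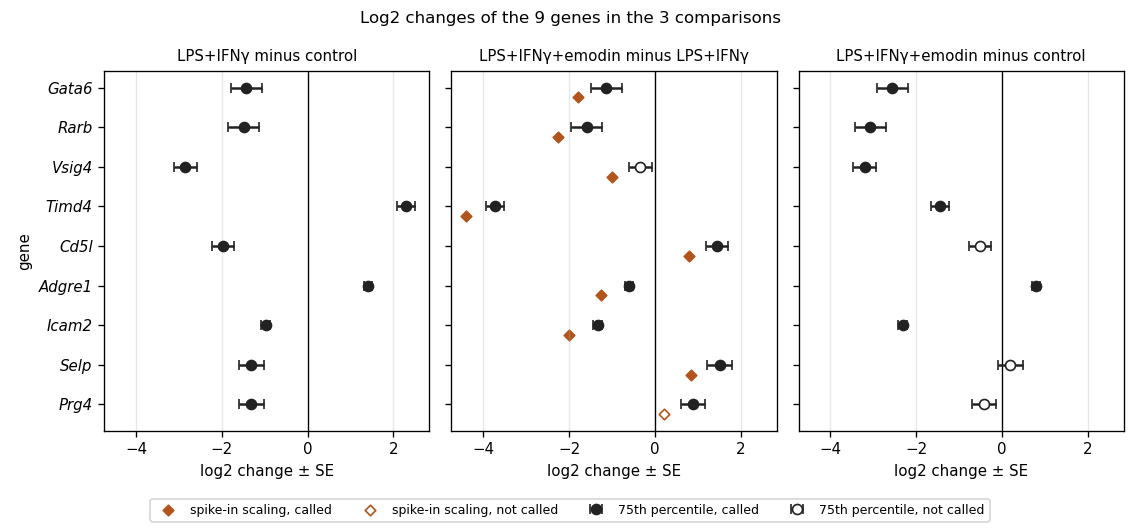
Log2 changes (x axis) of the 9 genes in the 3 comparisons, with bars of ± SE from the fit to 12 arrays, filled where the adjusted p was under 0.05; diamonds in the middle panel are values scaled to spike-in RNAs instead of the 75th percentile. Cd5l, Selp and Prg4 lie to the right of 0 in the middle panel, and the Timd4 points of the middle and right panels rest on LPS+IFNγ+emodin arrays that were not above background.

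The emodin arrays were dimmer, which bears on every gene in that comparison. The mean log2 signal of 7 spike-in probes, which read RNA added in a fixed mix before labelling, was 13.29 on LPS+IFNγ+emodin arrays and 13.38 on LPS+IFNγ arrays (difference -0.09 ± 0.06, SE, n = 4 each, exact two-sided permutation p = 0.2). The median gene was 10.05 on LPS+IFNγ+emodin arrays and 10.94 on LPS+IFNγ arrays, a difference with p = 0.0286 by the exact two-sided permutation test, the smallest that 4 against 4 allows. Scaling to the spike-ins moved the median change of all tested genes to -0.67 and the calls to 73.8% of tested genes, 1203 higher (9.14%) and 8520 lower (64.7%), against 4617 higher and 4840 lower. Cd5l (0.79) and Selp (0.85) were still called higher with that scaling, Prg4 (0.22) was no longer called, and Vsig4 (-1.0) was called lower.

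**Figure D2:**
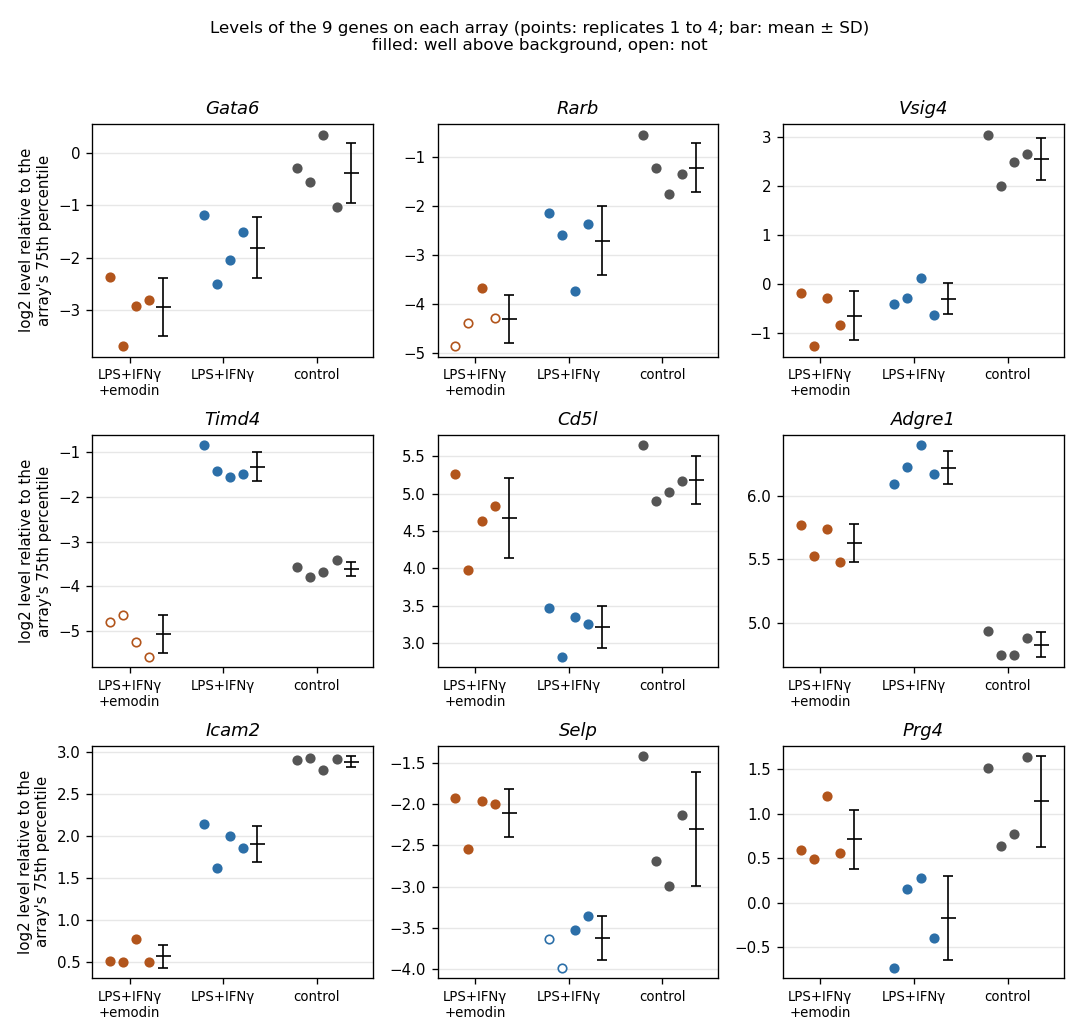
Log2 level relative to the 75th percentile of each array (y axis) of the 9 genes in the LPS+IFNγ+emodin, LPS+IFNγ and control groups; each point is 1 array, replicates 1 to 4 run left to right, open points are not well above background, and bars are mean ± SD. Timd4 is above background on all LPS+IFNγ and control arrays and on no LPS+IFNγ+emodin array.

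Gata6, the identity factor itself, was lowest with emodin and highest in control cells. Its log2 level was -2.36, -3.68, -2.91 and -2.81 on LPS+IFNγ+emodin arrays (replicates 1 to 4), -1.19, -2.50, -2.04 and -1.50 on LPS+IFNγ arrays, and -0.29, -0.55, 0.35 and -1.03 on control arrays. Every LPS+IFNγ array lay below every control array, whereas replicate 1 of the LPS+IFNγ+emodin group lay above replicate 2 of the LPS+IFNγ group. Gata6 fell by 1.43 ± 0.36 on the log2 scale in LPS+IFNγ cells relative to control (adjusted p = 0.00374). It fell by a further 1.13 ± 0.36 with emodin relative to LPS+IFNγ (adjusted p = 0.0137) and was lower in all 4 same-numbered pairs. The differences within those pairs were -1.17, -1.18, -0.87 and -1.31. With normexp background correction, an alternative added after seeing the data, the change with emodin was -0.33 (adjusted p = 0.205). That correction adds an offset of 50 to every signal, and the processed Gata6 signal was only 36.3 to 72.4 on LPS+IFNγ+emodin arrays. The offset shrinks both the change and the spread of such dim signals, and no run without it was made. The lost call therefore does not decide if Gata6 fell with emodin. In bulk RNA, fewer cells of a type and less RNA per cell cannot be told apart.

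Mesothelial cells, which line the cavity, and some fibroblasts are also known to express Gata6, and their markers moved with it from array to array. The mean log2 level of 11 markers (Msln, Upk3b, Wt1, Krt19, Krt8, Krt18, Col1a1, Col1a2, Col3a1, Dcn and Lum) was -1.30, -3.14, -2.91 and -2.02 on LPS+IFNγ+emodin arrays, -0.06, -1.33, -0.73 and -0.54 on LPS+IFNγ arrays, and 0.33, 0.30, 0.96 and -0.76 on control arrays. In each of the 3 groups, the 4 arrays stood in the same order by these markers as by Gata6. Of 81 pairs of a gene and a marker list this was the only pair with the same order in all 3 groups, and the next best pairs had it in 1 group. Well above background on all 4 arrays were 6 of the 11 markers in the LPS+IFNγ+emodin group, 8 in the LPS+IFNγ group and 10 in the control group. Their summed level, in multiples of the 75th percentile, was 12.8 to 41.8 with emodin, 82.9 to 160 in LPS+IFNγ cells and 20.5 to 87.3 in control cells. Dcn and Col1a2 were the brightest of the 11 in LPS+IFNγ cells. Between groups the sum did not keep the order of Gata6, since Gata6 was lower in LPS+IFNγ than in control cells and the sum was not. The mean log2 level did run in the order of Gata6, with overlap. It was -3.14 to -1.30 with emodin, -1.33 to -0.06 in LPS+IFNγ cells and -0.76 to 0.96 in control cells. Krt19, Krt8, Krt18, Col3a1 and Lum fell in LPS+IFNγ cells relative to control and Col1a1, Col1a2 and Dcn rose, each called. Msln and Wt1 did not pass that test. Upk3b was not above background on any treated array. The genes most like Gata6 over the 12 arrays were Cpxm1, Igfbp6 and Cd34, with root mean square differences of 0.24, 0.29 and 0.35 on the log2 scale. The part of mesothelial cells and fibroblasts in the Gata6 result was not tested. Among the other GATA factors, Gata5 was the only one of 5 tested, and it was -0.79 ± 0.16 in LPS+IFNγ cells relative to control (adjusted p = 0.000833). With emodin relative to LPS+IFNγ, Gata5 changed by 0.38 and was called higher, the opposite direction to Gata6.

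**Figure D3:**
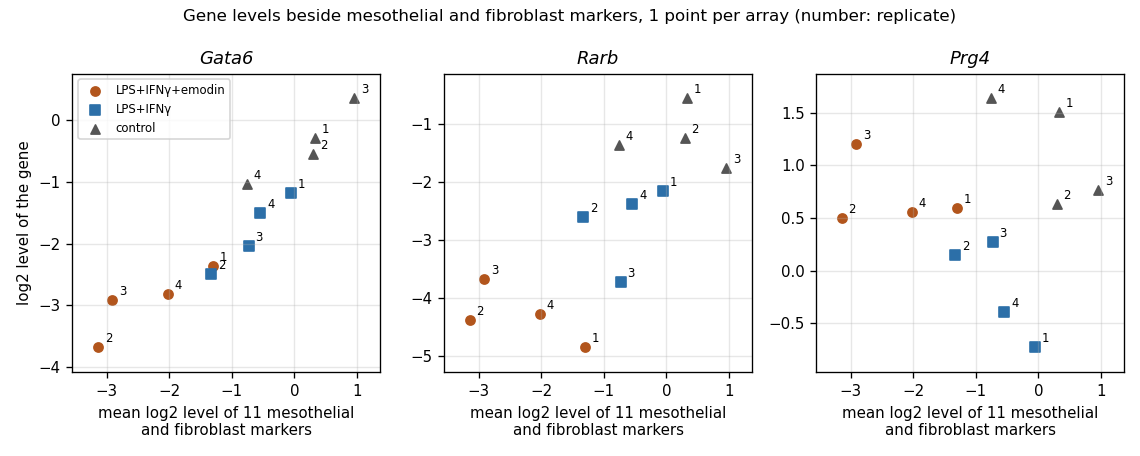
Log2 level of Gata6, Rarb and Prg4 (y axis) against the mean log2 level of 11 mesothelial and fibroblast markers (x axis) on the 12 arrays, numbered by replicate, with LPS+IFNγ+emodin as circles, LPS+IFNγ as squares and control as triangles. Gata6 climbs with the markers within each group, and Rarb and Prg4 do not keep one order with them.

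Rarb, a retinoic acid receptor whose own promoter carries the DR5 element shown above, declined in the same order. Its log2 level was -4.86, -4.39, -3.67 and -4.28 on LPS+IFNγ+emodin arrays, where only replicate 3 was well above background. It was -2.15, -2.60, -3.73 and -2.38 on LPS+IFNγ arrays and -0.55, -1.24, -1.75 and -1.36 on control arrays. The LPS+IFNγ arrays lay below the control arrays without overlap, and replicate 3 of the LPS+IFNγ group lay among the emodin arrays. Rarb fell by 1.49 ± 0.36 in LPS+IFNγ cells relative to control (adjusted p = 0.00301) and by 1.58 ± 0.36 with emodin relative to LPS+IFNγ (adjusted p = 0.00186). Replicate 3, which went against its sex label in both groups, differed by only 0.06 between them, and the other 3 pairs by -2.71, -1.79 and -1.90. The second Rarb probe was above background on control arrays alone and put the level at least 1.28-fold lower in LPS+IFNγ cells and at least 1.34-fold lower with emodin than in control cells. That probe gave -0.35 with emodin relative to LPS+IFNγ (adjusted p = 0.242), with no array of either group above background. Normexp correction, whose offset of 50 shrinks changes of dim probes, gave -0.45 for the first probe (adjusted p = 0.0534).

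Other genes of the retinoid pathway went both ways. Of 14 tested genes, 3 rose and 6 fell in LPS+IFNγ cells relative to control, and 2 rose and 6 fell with emodin relative to LPS+IFNγ. Rxra, the partner with which retinoic acid receptors bind DNA, was 0.21 in LPS+IFNγ cells relative to control and did not pass the test, and it rose by 3.96 ± 0.13 with emodin relative to LPS+IFNγ (adjusted p = 6.07e-10), the opposite direction to Rarb. Aldh1a1, an enzyme that makes retinoic acid, fell by 2.83 ± 0.35 in LPS+IFNγ cells. Only 1 of the 4 LPS+IFNγ arrays was above background for it, so the size of that fall is limited by background. Aldh1a2, an enzyme of the same kind, was above background on all 4 arrays of both groups and rose by 0.47 ± 0.18 (adjusted p = 0.0350). Dhrs3, which turns retinal back to retinol, fell by 2.10 ± 0.09 in LPS+IFNγ cells. Tgm2, a transglutaminase induced by retinoic acid in macrophages, rose by 2.88 ± 0.11. With emodin, Dhrs9, a dehydrogenase of the retinoid pathway, fell by 1.37 ± 0.12 relative to LPS+IFNγ. The median change of the 14 genes was -0.24 with emodin, and that of all tested genes was -0.01.

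Vsig4, the complement receptor CRIg that binds C3 fragments on particles, fell with stimulation and stayed low with emodin. Its log2 level was -0.19, -1.27, -0.29 and -0.84 on LPS+IFNγ+emodin arrays, -0.41, -0.30, 0.11 and -0.64 on LPS+IFNγ arrays, and 3.05, 2.01, 2.48 and 2.65 on control arrays. Both treated groups overlapped each other and lay below every control array. The log2 change relative to control was -3.20 ± 0.27 in LPS+IFNγ+emodin cells (adjusted p = 3.56e-07) and -2.86 ± 0.27 in LPS+IFNγ cells (adjusted p = 1.63e-06). The change with emodin relative to LPS+IFNγ was -0.34 ± 0.27 (adjusted p = 0.275), with a 95% interval of -0.93 to 0.25.

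The ligand and the other complement receptors did not move as one. C3, whose fragments Vsig4 binds, rose by 4.76 ± 0.23 in LPS+IFNγ cells and factor B (Cfb) by 6.52 ± 0.14, while the anaphylatoxin receptors C3ar1 and C5ar1 fell, with changes of -2.18 ± 0.10 and -2.04 ± 0.23. Itgam, the alpha chain of complement receptor 3, fell by 1.69. With emodin relative to LPS+IFNγ, C3ar1 rose by 1.74 ± 0.10 and Cfb fell by 2.6 ± 0.14. In the list of 10 tested complement genes, 3 rose and 6 fell in LPS+IFNγ cells, and 5 rose and 4 fell with emodin.

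Timd4, the receptor TIM-4 that holds phosphatidylserine on dying cells, was highest in LPS+IFNγ cells and not above background with emodin. Its log2 level was -4.80, -4.64, -5.24 and -5.58 on LPS+IFNγ+emodin arrays, none of them well above background. It was -0.85, -1.43, -1.56 and -1.48 on LPS+IFNγ arrays and -3.58, -3.80, -3.68 and -3.42 on control arrays. The groups did not overlap, with the LPS+IFNγ arrays highest. Timd4 rose by 2.29 ± 0.21 in LPS+IFNγ cells relative to control (4.89-fold, adjusted p = 1.16e-06). With emodin it was at least 6.45-fold lower than in LPS+IFNγ cells (adjusted p = 2.34e-08), a bound set by the lowest signal that was well above background on those arrays. On the same basis it was at least 1.32-fold lower than in control cells (adjusted p = 4.21e-05). Both adjusted p-values belong to the fit to the measured levels, and the bounds themselves were not tested. The difference between LPS+IFNγ+emodin and control cells was -0.07 with normexp correction (adjusted p = 0.543), whose offset of 50 shrinks changes of dim probes.

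B-1 lymphocytes of the peritoneal cavity are also known to carry TIM-4, and B cell markers differed between the same groups. Their summed level was 0.191 to 0.403 multiples of the 75th percentile on LPS+IFNγ+emodin arrays, 0.770 to 2.42 on LPS+IFNγ arrays and 1.12 to 2.55 on control arrays. Of 7 named markers, none was well above background on all 4 LPS+IFNγ+emodin arrays, 3 were on all 4 LPS+IFNγ arrays and 4 on all 4 control arrays. Ms4a1, which encodes CD20, was at -1.83 in LPS+IFNγ cells and -1.83 in control cells, where Timd4 differed, and was not above background on any emodin array. The part of B cells in the Timd4 result was not tested.

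Other genes of apoptotic cell uptake showed several patterns, with 4 of 15 tested genes up and 8 down in LPS+IFNγ cells, and 6 up and 8 down with emodin. The receptor kinases Axl and Mertk rose by 5.14 ± 0.19 and 2.49 ± 0.16 in LPS+IFNγ cells relative to control and fell by 3.16 ± 0.19 and 1.74 ± 0.16 with emodin relative to LPS+IFNγ, the same directions as Timd4. Havcr2, which encodes the related receptor TIM-3, fell in both comparisons, with changes of -1.57 and -2.49 ± 0.18. Gas6, which bridges Axl and Mertk to dying cells, fell by 2.61 ± 0.13 in LPS+IFNγ cells, and Itgb3, an integrin chain that takes part in uptake, rose by 2.29 ± 0.16 with emodin. The genes most like Timd4 over the 12 arrays were Trip13, Klra2 and Ccnd3, with root mean square differences of 0.27, 0.33 and 0.35.

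Cd5l, a secreted scavenger receptor protein also called AIM, fell in LPS+IFNγ cells and was higher with emodin. The log2 level was 5.26, 3.98, 4.63 and 4.83 on LPS+IFNγ+emodin arrays, 3.46, 2.81, 3.34 and 3.25 on LPS+IFNγ arrays, and 5.65, 4.91, 5.02 and 5.17 on control arrays. The LPS+IFNγ arrays lay below all others, and the LPS+IFNγ+emodin and control arrays overlapped. Cd5l fell by 1.97 ± 0.25 in LPS+IFNγ cells relative to control (3.91-fold lower, adjusted p = 2.42e-05) and rose by 1.46 ± 0.25 with emodin relative to LPS+IFNγ (2.75-fold, adjusted p = 0.000257). Between LPS+IFNγ+emodin and control cells the change was -0.51 ± 0.25 (adjusted p = 0.0842). That difference passed the threshold under 5 alternatives. These were the replicate block (adjusted p = 0.00475), quantile normalisation (-0.81, adjusted p = 0.0108), the deposited value table (-0.81, adjusted p = 0.0104), the 75th percentile over detected probes (-0.68, adjusted p = 0.0250) and leaving out LPS+IFNγ+emodin replicate 1 (-0.70, adjusted p = 0.0185). Nr1h3, the liver X receptor known to drive Cd5l in macrophages, was -0.20 in LPS+IFNγ cells, which did not pass the test, and rose by 1.11 ± 0.09 with emodin relative to LPS+IFNγ (adjusted p = 4.42e-07). Of the other scavenger receptor genes tested, Marco moved the opposite way to Cd5l, by 1.60 ± 0.21 in LPS+IFNγ cells and -2.10 ± 0.21 with emodin.

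Adgre1 was the only one of the 9 genes that was above control in both treated groups. Its log2 level was 5.77, 5.53, 5.74 and 5.48 on LPS+IFNγ+emodin arrays, 6.10, 6.23, 6.40 and 6.17 on LPS+IFNγ arrays, and 4.93, 4.75, 4.74 and 4.88 on control arrays. The 3 groups did not overlap. Adgre1 rose by 1.40 ± 0.09 in LPS+IFNγ cells relative to control (adjusted p = 7.05e-08) and fell by 0.60 ± 0.09 with emodin relative to LPS+IFNγ (adjusted p = 0.000108). In LPS+IFNγ+emodin cells it was 0.80 ± 0.09 above control (adjusted p = 6.24e-06). The second Adgre1 probe gave 1.25, -0.51 and 0.74 in the same comparisons, each called. The processed signal itself averaged 21003 on LPS+IFNγ+emodin arrays and 20783 on control arrays. For the second probe it averaged 11909 and 12264. These averages compare LPS+IFNγ+emodin arrays on slide 1 with control arrays on slide 2. The mean log2 signal of the spike-in probes was 13.33 on slide 1 and 10.78 on slide 2. Processed signal is therefore not on one scale across the slides. The averages cannot decide if the rise of LPS+IFNγ+emodin cells over control rests on the dimmer emodin arrays. Adgre5, the tested relative of Adgre1 (CD97), fell by 2.24 ± 0.09 in LPS+IFNγ cells and by 1.52 ± 0.09 with emodin.

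The adhesion molecules Icam2, which binds the integrin LFA-1, and Selp, P-selectin, differed in how they stood with emodin. Icam2 was 0.50, 0.50, 0.77 and 0.49 on LPS+IFNγ+emodin arrays, 2.13, 1.62, 2.00 and 1.86 on LPS+IFNγ arrays, and 2.90, 2.93, 2.78 and 2.91 on control arrays. The 3 groups formed steps without overlap. Icam2 fell by 0.98 ± 0.11 in LPS+IFNγ cells relative to control (adjusted p = 6.52e-06) and by 1.34 ± 0.11 with emodin relative to LPS+IFNγ (adjusted p = 4.72e-07). Selp was -1.93, -2.54, -1.97 and -2.0 on LPS+IFNγ+emodin arrays, -3.64, -3.98, -3.52 and -3.36 on LPS+IFNγ arrays, and -1.42, -2.69, -2.99 and -2.13 on control arrays. The LPS+IFNγ arrays were lowest, with only replicates 3 and 4 well above background, and the LPS+IFNγ+emodin arrays lay within the range of the control arrays. Selp fell by 1.32 ± 0.29 in LPS+IFNγ cells relative to control (adjusted p = 0.00159) and rose by 1.52 ± 0.29 with emodin relative to LPS+IFNγ (adjusted p = 0.000554). Against control, Selp in LPS+IFNγ+emodin cells differed by 0.20 ± 0.29 (adjusted p = 0.548, 95% interval -0.44 to 0.83).

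Endothelial cells carry Icam2 and Selp, and platelets carry Selp. The endothelial markers Tek, Emcn and Tie1 were not above background on any of the 12 arrays, nor were the platelet markers Ppbp, Gp9, Itga2b, Gp1ba and Gp6. Other markers of both lists were detected, namely Pecam1, Kdr and Pf4 on all 12 arrays, Cdh5 and the platelet glycoprotein chain Gp1bb on 11 each, and Esam on 0 LPS+IFNγ+emodin, 3 LPS+IFNγ and 4 control arrays. Gp1bb and Kdr changed in the same directions as Selp, Gp1bb by -0.69 in LPS+IFNγ cells relative to control and 0.63 with emodin relative to LPS+IFNγ, and Kdr by -1.27 and 0.55, each called. In the same comparisons Pecam1 changed by 0.40 (called) and 0.33 (not called), and Cdh5 by 0.18 (not called) and -0.56 (called). Esam changed by -0.48 (not called) and was at least 1.60-fold lower with emodin (called). Pf4 changed by -0.66 (called) and 0.21 (not called). The part of endothelial cells and platelets in the Selp and Icam2 results was not tested. The summed level of the 7 endothelial markers was 14.9 to 18.3 on LPS+IFNγ+emodin arrays, 9.92 to 12.9 on LPS+IFNγ arrays and 25.5 to 28.2 on control arrays, most of it the signal of Kdr. That of the 7 platelet markers was 66.9 to 115, 65.6 to 87.1 and 89.7 to 183 in the same order of groups, most of it Pf4, which macrophages also express. Of the partners, Itgal, the LFA-1 chain that binds Icam2, rose by 4.65 ± 0.16 in LPS+IFNγ cells and fell by 3.78 ± 0.16 with emodin. Icam1, another ligand of LFA-1, rose by 5.0 ± 0.13 in LPS+IFNγ cells relative to control, and Selplg, the ligand of P-selectin, was -0.57 there and 0.85 with emodin relative to LPS+IFNγ.

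Prg4, the secreted lubricant lubricin, was low in LPS+IFNγ cells. The log2 level was 0.59, 0.50, 1.20 and 0.55 on LPS+IFNγ+emodin arrays, -0.73, 0.15, 0.28 and -0.39 on LPS+IFNγ arrays, and 1.51, 0.63, 0.77 and 1.64 on control arrays. The LPS+IFNγ arrays lay below all others without overlap. Prg4 fell by 1.31 ± 0.28 in LPS+IFNγ cells relative to control (adjusted p = 0.00131) and rose by 0.88 ± 0.28 with emodin relative to LPS+IFNγ (adjusted p = 0.0138). The processed signal itself averaged 711 on LPS+IFNγ+emodin arrays and 672 on LPS+IFNγ arrays, so the rise is one relative to the dimmer emodin arrays. Against control the change in LPS+IFNγ+emodin cells was -0.43 ± 0.28 (adjusted p = 0.184, 95% interval -1.04 to 0.19). The other Prg4 probe was above background on no array. Cd44 and the toll-like receptors Tlr2 and Tlr4, to which lubricin is known to bind, changed by 0.76, 2.24 and -0.70 in LPS+IFNγ cells and by 2.03, -0.94 and -2.24 with emodin, each called.

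Other genes known from the resident peritoneal programme fell and rose in similar numbers in LPS+IFNγ cells, 5 up and 6 down of 18 tested. The integrin chain Itga6 fell by 2.34 ± 0.15, and coagulation factor V (F5) and the receptor Fgfr1 changed by -3.57 ± 0.20 and -2.07 ± 0.13, whereas Serpinb2, the plasminogen activator inhibitor PAI-2, rose by 6.13 ± 0.32 and factor X (F10) by 2.84 ± 0.09. With emodin relative to LPS+IFNγ, 6 rose and 9 fell. Serpinb2 was at least 549-fold lower, Naip1, an inflammasome sensor, at least 6.70-fold lower and Ltbp1, which binds latent TGF-beta, at least 4.85-fold lower, and none of these was above background on any emodin array. Ednrb, the endothelin B receptor, rose by 2.79 ± 0.14 and Slpi, a protease inhibitor, by 1.77. Against control, 3 rose and 10 fell in LPS+IFNγ+emodin cells, with a median change of -1.43 where that of all tested genes was -0.00. The median of the 18 genes was -0.17 in LPS+IFNγ cells relative to control and -0.73 with emodin relative to LPS+IFNγ.

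Lineage factors of macrophages were measured on every array. In LPS+IFNγ cells 6 of 14 rose and 5 fell relative to control, with Irf8 up by 3.21 ± 0.08 and Klf4 by 2.12 ± 0.14, and with Maf down by 0.98 ± 0.20. Spi1, which encodes PU.1, fell by 0.67 in LPS+IFNγ cells and rose by 0.20 with emodin. Maf fell by a further 1.54 ± 0.20 with emodin, while the zinc finger factor Klf2 rose by 1.12 ± 0.13.

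Genes of small peritoneal macrophages and monocytes, the cells that outnumber the resident type during inflammation, also split. Of 15 tested, 7 rose and 6 fell in LPS+IFNγ cells, and 3 rose and 4 fell with emodin. The class II genes H2-Ab1 and Cd74 rose by 3.54 ± 0.19 and 2.54 in LPS+IFNγ cells, and Ly6c1 by 7.51 ± 0.28, while the lectins Clec10a and Mrc1 fell by 4.41 ± 0.21 and 2.93. The monocyte receptor Ccr2 was above background on control arrays alone. With emodin relative to LPS+IFNγ, Ly6c1 fell by 6.08 ± 0.28 and Mrc1, the mannose receptor, rose by 3.23 ± 0.28.

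**Figure D4:**
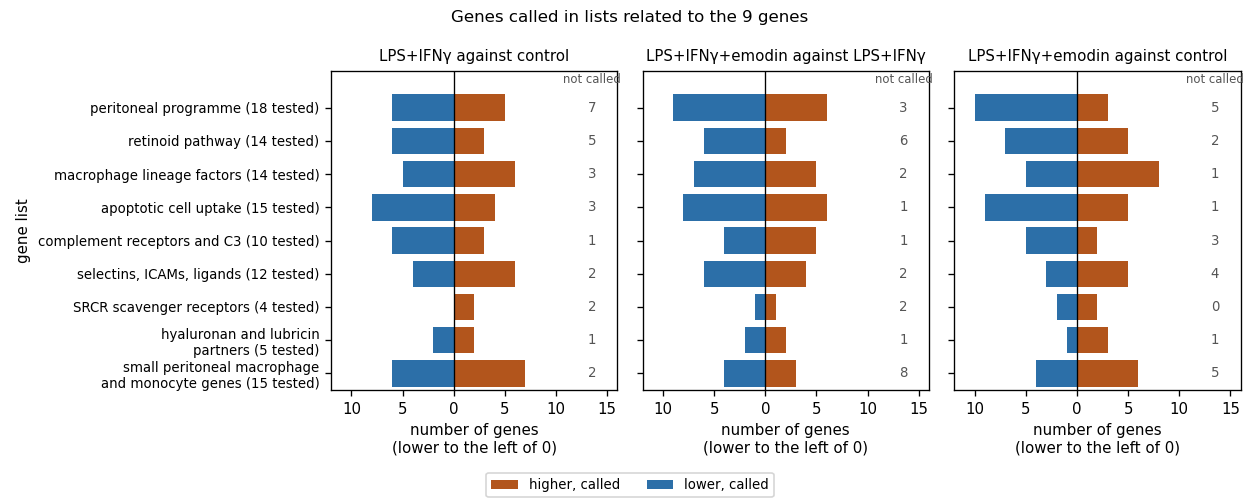
Number of genes (x axis) called higher (right of 0) or lower (left of 0) at an adjusted p under 0.05 in 9 lists related to the described genes, with the number not called at the right edge, in the 3 comparisons. Both directions occur in every list and panel except the SRCR scavenger receptors in LPS+IFNγ against control, and of 18 tested genes of the peritoneal programme, 10 are lower in LPS+IFNγ+emodin than in control cells.

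Likeness over the 12 arrays grouped the 9 genes with different neighbours, each gene being centred on its own mean. The genes most like Vsig4 were Gpr183, Ccr2 and Slco2b1, at root mean square differences of 0.25 to 0.32 on the log2 scale. Their mean levels in the treated groups were -6.21 to -5.35, under the lowest levels well above background on those arrays. Their shape there is limited by background, whereas Vsig4 was well above it on all 12 arrays. The genes most like Cd5l were Fos, Rassf2 and Tspan7 (0.26 to 0.33), and those most like Selp were Plxdc2, Trf and Cabp1 (0.31 to 0.35). Adgre1 was closest to Psmd3, Pkn3 and Gclm (0.11 to 0.12), and Icam2 to Stra6l, Get1 and Mmp19 (0.15). Rarb was closest to Rpp40 and Pak1 (0.39 and 0.41), and Prg4 to Vwf, Trem1 and Fnip2 (0.27 to 0.30). These values describe shape over 12 arrays and carry no test.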

How the data were processed

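The deposited scanner files of 12 one-colour Agilent arrays hold spot intensity. The submitters' processing notes name Agilent Feature Extraction 10.7.3.1. Its processed signal already has background subtracted, per the file headers. A deposited table of log2 values matched signal that was quantile-normalised and then centred on each probe's median. Its columns for control replicates 1, 3 and 4 matched scanner files of control replicates 4, 1 and 3, and it was used as an alternative only. The genome build of the probe annotation in the files is older than the RefSeq table (GRCm38.p6), which was used for names and promoter windows.

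Spots with outlier flags were left out, spots of a probe were averaged, and log2 signal had the array's 75th percentile subtracted. A probe was kept when well above background on all 4 arrays of a group (27375 of 55681). The brightest probe stood for a gene. Linear models were fitted to all 12 arrays with limma 3.58.1 in R 4.3.3, with Benjamini-Hochberg adjustment over 13168 genes. All adjusted p-values are limma's and two-sided, and errors are SE with 4 arrays per group. A gene was called at an adjusted p under 0.05. A value "at least" N-fold compares the brighter group's mean with the dim group's floor, which on each array is the dimmest signal still above background or the signal of that probe, whichever is higher. Calls and p-values beside such a value come from the fit to the measured levels, and the bound itself was not tested. Arrays have no depth, so their number limits the precision. The code was tested on simulated data.

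The 9 genes, the lists and the marker sets were chosen with earlier results of these data known. From each list, up to 5 called genes with the largest change per comparison were named, with others where a description needed them, and the 3 genes of smallest root mean square difference were named as most like each. Same-numbered LPS+IFNγ+emodin and LPS+IFNγ arrays lie on slide 1, and their deviations from the group means correlated at 0.23, 0.28, 0.16 and 0.15. These values were not set beside those of differently numbered arrays, so they do not establish that the numbers pair the arrays. The main fit and the permutation tests did not pair arrays, and the replicate block did so by number. Alternatives covered normalisation, background, filter, probe choice, replicate block, spike-ins and leaving out arrays. The motif search used both strands, and the DR5 element was added after the data were seen. Some genes and 1 motif that these rules select are not reported here.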

Additional observations from a re-analysis of the deposited data

Results flagged for a closer look

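Among 27 sets of 4 values (9 genes in 3 groups), 3 held an array whose distance to its nearest neighbour was over Dixon's 95% limit as a share of the whole range. Chance gives about 1 in 20 such sets. Icam2 was 0.77 on LPS+IFNγ+emodin replicate 3, the highest of its group. Selp was -2.54 on LPS+IFNγ+emodin replicate 2, the lowest of its group. Prg4 was 1.20 on LPS+IFNγ+emodin replicate 3, the highest of its group.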

How the results depend on the processing

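Of 609 values of single genes under the alternatives, 597 kept their direction and their side of the threshold, 5 lost the call, 6 gained it and 1 changed sign. The sign change was that of Selp in LPS+IFNγ+emodin against control, which ran between -0.0302 (without control replicate 3) and 0.493 (without control replicate 1) and was called in neither. Leaving out 1 array at a time, 9 of the 9 genes were called in LPS+IFNγ against control, 8 in LPS+IFNγ+emodin against LPS+IFNγ, and 6 to 7 in LPS+IFNγ+emodin against control. Requiring detection on all 12 arrays left 6 of the 9 genes tested, without Rarb, Selp and Timd4, and 5 were called with emodin relative to LPS+IFNγ, since fewer genes were tested. Of all 11158 genes tested there, 8162 were called. Normexp correction on median signals, added after seeing the data, adds an offset of 50 to every signal. The offset shrinks both the changes and the spread of dim probes, and no run without it was made. Calls lost there therefore do not decide if a dim gene changed. Timd4 was -1.32 with emodin relative to LPS+IFNγ and 1.25 in LPS+IFNγ relative to control. Gata6 and Rarb were -1.32 and -1.36 in LPS+IFNγ+emodin relative to control, and Selp and Rarb were -0.70 and -0.91 in LPS+IFNγ relative to control. Each of these smaller changes of dim genes was still called. The planned normexp run on mean signals was not run, because the files used here give median signals. The replicate block changed no call among the 9 genes except that of Cd5l in LPS+IFNγ+emodin against control (adjusted p = 0.00475), which 4 other alternatives also called. In LPS+IFNγ+emodin against LPS+IFNγ it gave 9396 called genes over 12 arrays, where the fit without it gave 9457, and 9599 over the 8 arrays of that comparison, where the fit without it gave 9475. Quantile normalisation moved the median change of all tested genes to -0.13 in LPS+IFNγ and -0.14 in LPS+IFNγ+emodin cells relative to control. The dimmest signals, those of Timd4, Rarb and Selp, are limited by background on the arrays of 1 group each.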
